A study of Mus musculus and Homo sapiens with 4 samples.

Results

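The RNAs described here are human transcripts whose Ensembl identifier numbers fall in 5 blocks, stretches of numbers in which catalogues of small structured RNA were imported into the annotation. The blocks are lettered A to E in order of their numbers. Members of A ran from 362102 to 365739, of B from 383834 to 386157, of C from 408001 to 411398 and of E from 515802 to 517595, and D lies between C and E. A row of the deposited tables was a member when its number lay in a block and no coding region was counted for it. The rule used no read number, but the members were chosen with earlier results of these data known. The 5 blocks held 6484 members of the 194871 human rows, and 286 members had at least 30 reads summed over both libraries. Another 21 rows of the blocks, believed from general knowledge to be vault, Y, U1 to U6, RMRP, RPPH1 and 7SK RNAs, were left out. The tables used here hold no human transcript names, so neither that list nor any name was checked, members are given by block or by identifier, and no sequence is shown.

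Small structured RNAs work as folded RNA inside protein complexes, and none is known as a message. Small nuclear RNAs build the spliceosome, small nucleolar RNAs guide chemical modification of other RNAs, microRNA precursors are cut to short regulators, and 5S RNA is part of the large ribosomal subunit itself. Nuclease treatment leaves pieces of such RNAs wherever structure or protein shields them, so they are known as a source of reads in footprint libraries that no ribosome needs to protect.

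The cells were HEK, an established line from human embryonic kidney, kept in DMEM with 10% serum, and each group had 1 library. Lysate was digested with RNase I and separated by size exclusion chromatography, and the RNA kept after that step made the input library. For the bound library, a tag on the large subunit was in addition used to pull assembled ribosomes onto streptavidin; the labels do not name the tagged protein. The pair addresses whether footprints travel with the tagged subunit. Each value below compares 1 library with 1 other and carries no test of the conditions. Intervals cover counting error only and leave out variation between libraries, since each group had 1. They treat each read as separate, so they are too narrow where amplified copies of 1 fragment were counted. Summed transcript counts were 17446956 before and 30208713 after capture. The cell line was not checked by marker genes, since the rows carry no names.

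Most members had no reads at all. In 5752 of the 6484 (88.7%) both libraries listed 0, a further 446 had 1 to 29 reads and 286 (4.41%) reached 30. Among the other 112896 rows without a coding region 36.4% had no reads and 35.0% reached 30. The minimum was set on the sum of both libraries, so a row could reach it through 1 of them. Values below therefore describe the 286 detected members and not the blocks as a whole. A row at 0 in a library allows up to 3 reads there.

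The detected members were lower after capture more often than other rows. A ratio was computed as bound over input reads, scaled so that the median coding region has a log2 ratio of 0. At that scale 100 of 286 members (35.0%) were lower by 2-fold or more in the bound library and 6 (2.10%) higher by 2-fold or more. The background over all 79018 features with 30 reads was 4.19% lower and 0.94% higher. Among the other 39534 rows without a coding region it was 5.27% and 1.11%, and among 39184 coding regions 2.85% and 0.758%. The median log2 ratio of the members was -0.47, a level 1.38-fold lower, with quartiles at -1.67 and 0.086. The other rows without a coding region had a median of -0.047 with quartiles at -0.35 and 0.18.

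Larger differences showed the same tilt. There were 51 members lower by 4-fold or more (17.8%), 18 lower by 8-fold or more (6.29%) and 8 lower by 16-fold or more (2.80%). At 4-fold the background was 0.628% of all features, 0.875% of the other rows without a coding region and 0.222% of coding regions. At 16-fold it was 0.144%, 0.25% and 0.0128%, in the same order. At 8-fold it was 0.251% of all features, 0.392% of the other rows without a coding region and 0.0383% of coding regions. Members made up 0.72% of the rows without a coding region that reached 30 reads, left-out rows aside, and 12.8% of those lower by 4-fold or more (51 of 397). They made up 10.4% of those lower by 8-fold or more (18 of 173). The share was 7.48% at 16-fold (8 of 107) and 4.58% at 2-fold (100 of 2182), so it did not rise steadily with the threshold. Of the 286, 127 (44.4%) had a 95% exact counting interval of the ratio wholly below 1 and 20 (6.99%) wholly above 1. Over all features these shares were 12.8% and 8.3%, over the other rows without a coding region 13.4% and 8.16%, and over coding regions 12.0% and 8.45%.

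The identifier numbers do not all hold small RNAs, and this divided the members. Of the 7678 rows in the blocks 1173 (15.3%) had a coding region. These were 1034 of 2370 rows (43.6%) in block C, 113 of 1694 (6.67%) in block E, and 6 to 11 rows in each of the remaining blocks. The coding rows lay close together: of 121 windows of 100 consecutive numbers, 26 held at least 1 coding row and 95 held none. Members in windows with coding rows cannot be told by their numbers from noncoding isoforms of messages, so the numbers do not bear out the label of small structured RNA for them. In block B, 2 of them repeat the counts of rows left out as U1, as described below. The windows were set by the coding column alone, without the ratios, but they were drawn up after the ratios along the numbers had been seen.

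Among members in windows without coding rows the lower ratios predominated. Of 145 such members with 30 reads, 90 (62.1%) were lower by 2-fold or more in the bound library, 48 (33.1%) by 4-fold or more and 17 (11.7%) by 8-fold or more. Their median log2 ratio was -1.49, a level 2.81-fold lower, with quartiles at -2.26 and -0.49. Among 141 members in windows with coding rows only 10 (7.09%) were lower by 2-fold or more, near the 5.27% of other rows without a coding region, and the median was -0.036. That median lies close enough to 0 for its sign to follow the scaling, with 0.16 when libraries were scaled to total counts. Within 0.5 of 0 on the log2 scale lay 95 of the 141 and 26 of the 145. The members in windows without coding rows were also detected less often, 145 of 5779 (2.51%) against 141 of 705 (20.0%).

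**Figure D1:**
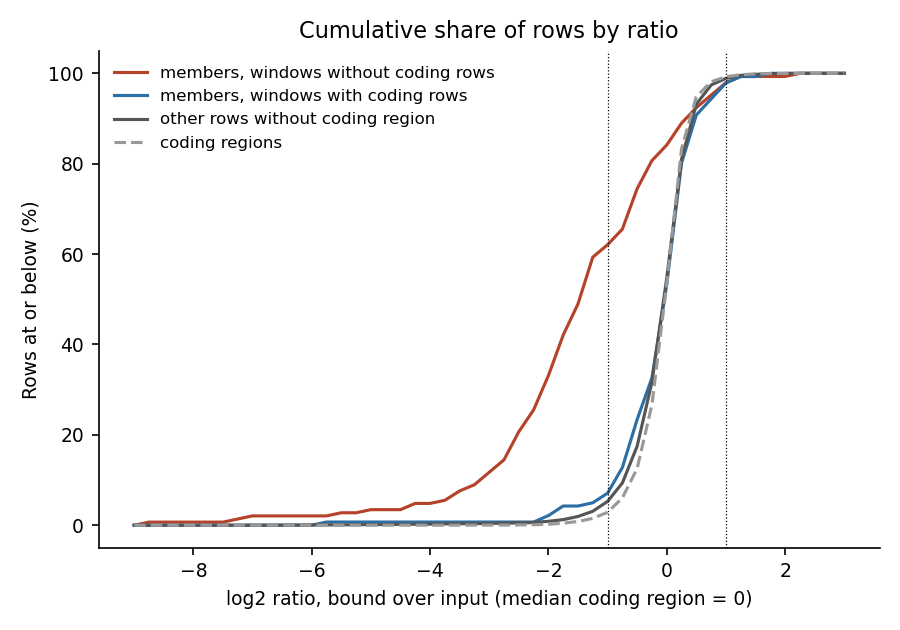
Cumulative percent of rows with 30 or more summed reads (y) at or below each log2 ratio of bound over input (x, median coding region at 0). Red and blue are members in windows of 100 identifiers without and with coding rows, dark grey the other rows without a coding region, dashed grey the coding regions, and dotted lines mark 2-fold differences. The red curve reaches 62.1% at 2-fold lower, while the blue one stands at 7.09%.

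Outside the blocks the same division was seen. Of the other rows without a coding region, 547 lay in windows that hold no coding row, and 49 of these had 30 reads. In that set 28 (57.1%) were lower by 2-fold or more, 19 (38.8%) lower by 8-fold or more, and the median log2 ratio was -1.42. In windows with coding rows 2053 of 39443 other rows (5.21%) were lower by 2-fold or more and the median was -0.047. A low ratio in windows without coding rows was thus not seen in the blocks alone. No test of the difference between the sets of rows was made, because rows are not replicates.

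By block, the members in windows without coding rows were lower throughout. In block A, 36 of 60 (60.0%) were lower by 2-fold or more, with a median log2 ratio of -1.38. Only 2 of that block's 1677 members lay in windows with coding rows, and neither had a read. In block B, 19 of 36 (52.8%) were lower (median -1.13). Block C had 23 of 28 (82.1%) lower, with a median of -1.91, a level 3.76-fold lower. Block D had 4 of 6 lower (median -1.66) and block E had 8 of 15 (median -1.31). All 5 medians lay below -1, from -1.13 to -1.91.

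Members in windows with coding rows had medians near 0 in the blocks with most of them. In block E, 4 of 88 (4.55%) were lower by 2-fold or more and the median was 0.015. In block C, 3 of 41 (7.32%) were lower, with a median of -0.035. The 8 such members of block D had a median of -0.40 and none was 2-fold lower. Block B differed: 3 of its 4 such members were lower, and all 3 belong to sets of rows with nearly equal counts described below. Because the mix of windows differed between blocks, so did the blocks as wholes, from 60.0% lower in block A to 11.7% (12 of 103) in block E.

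**Figure D2:**
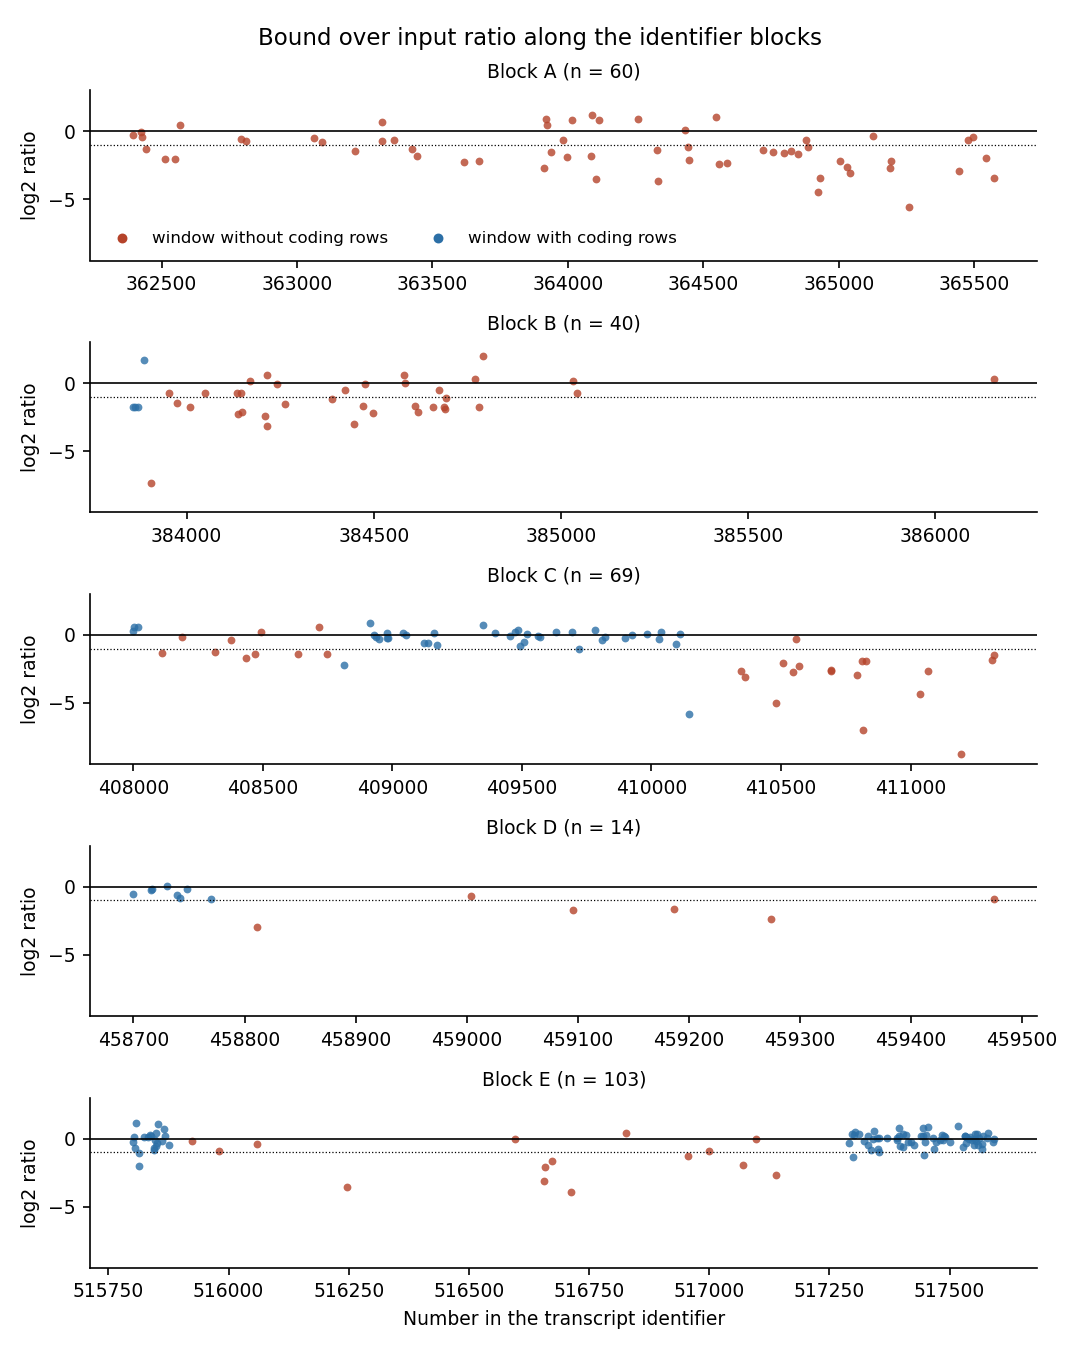
log2 ratio of bound over input (y) of each of the 286 members with 30 or more reads against the number in its identifier (x), 1 panel per block. Red points lie in windows without coding rows and blue points in windows with them; the solid line is the median coding region and the dotted line 2-fold lower. In block C the blue points gather near 0 with a median of -0.035, and the red points on both sides of them have a median of -1.91.

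The difference between the sets was present at each level of reads. In windows without coding rows the share lower by 2-fold or more was 41 of 70 (58.6%) from 30 to under 100 summed reads, 16 of 25 (64.0%) from 100 to under 300, 16 of 27 (59.3%) from 300 to under 1000 and 17 of 23 (73.9%) at 1000 or more. For other rows without a coding region the shares in the same bins were 9.06%, 3.03%, 1.12% and 1.99%. Members in windows with coding rows had 5 of 65, 1 of 41, 0 of 24 and 4 of 11. Those last 4 are 3 rows of the repeated sets in block B and the member with 1268 input and 44 bound reads described below. Below the minimum the members were also lower in sum: 323 members in windows without coding rows with 1 to 29 reads held 1007 input and 968 bound reads, 2.07-fold lower at the scale used. The sum over other rows with 1 to 29 reads was 1.32-fold lower.

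**Figure D3:**
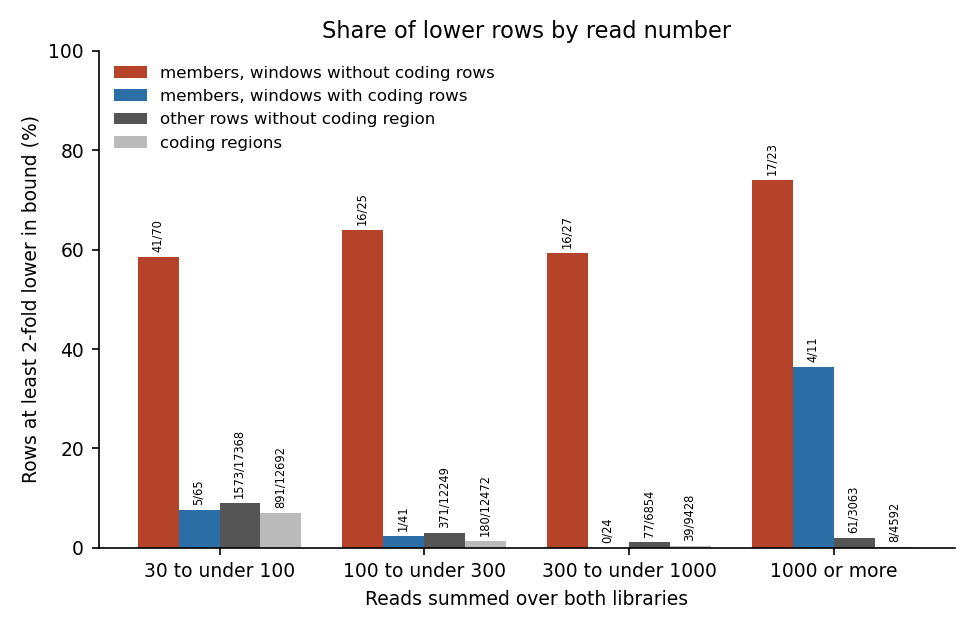
Percent of rows lower by 2-fold or more in the bound library (y) by reads summed over both libraries (x), with the number lower and the number of rows on each bar. Members in windows without coding rows (red) lie between 58.6% and 73.9% in all 4 bins, and other rows without a coding region (dark grey) between 1.12% and 9.06%.

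The members just at the minimum spread widely. With 29 summed reads there were 4 members, all with 14 input and 15 bound reads and a log2 ratio of -0.85. With 30 reads there were 4, whose log2 ratios ran from -3.08 to -0.19.

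Among members with 100 or more reads the 2 lowest ratios fell in block C. The lowest of all members was ENST00000411193.1, with 1540 input and 6 bound reads. That is 510-fold lower, with a 95% exact counting interval from 234 to 1393. ENST00000410818.1 had 646 input and 9 bound reads, 143-fold lower (interval 74.7 to 314). Neither shares its counts with another member, and both lie in windows without coding rows.

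The remaining members lower by 16-fold or more were 6, given here without identifiers. One in block B had 80 input reads and 0 bound, at least 53.0-fold lower when a floor of 3 bound reads is used. One in block A had 46 input reads and 1 bound read, 91.5-fold lower with an interval from 15.6 to 3690. In block C, a member with 1268 input and 44 bound reads was 57.3-fold lower (interval 42.4 to 79.3). It is the sole member this low in a window with coding rows. The other members this low in that block had 1256 and 76 reads, 32.9-fold lower, or 132 and 12 reads, 21.9-fold lower. The last, in block A, had 196 and 17 reads, 22.9-fold lower. These 8 members span from 47 to 1546 summed reads, so the extreme ratios were not limited to rows with few summed reads. Their bound reads ran only from 0 to 76.

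Few members were higher after capture, although their share of 2.10% lay above the 0.94% of all features and the 1.11% of other rows without a coding region. All 6 higher by 2-fold or more had between 32 and 116 summed reads, and for 1 of them the counting interval included 1. Higher rows had few reads among all features too. There 688 had under 100 summed reads, 55 had 100 to under 300 and none had more. With 22 input and 94 bound reads, ENST00000364546.1 was 2.15-fold higher (interval 1.34 to 3.59). With 26 and 94 reads, ENST00000364015.1 was 1.82-fold higher (interval 1.17 to 2.93). These are the highest ratios among members with at least 100 reads. The highest of all belonged to a row of block B with 9 input and 76 bound reads. Its ratio was 4.25-fold higher, with an interval from 2.12 to 9.64. It is the only member whose interval lies wholly above 2-fold, beside 2 of all 79018 features (0.00253%). Scaled to total counts, which shifts the scale by 0.20 in log2 units and raises ratios by that much except where the prior weighs at few bound reads, 13 members were higher by 2-fold or more and 94 lower, so 12.1% of the calls went up in place of 5.66%. At that scaling 2.17% of the other rows without a coding region were higher by 2-fold or more.

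**Figure D4:**
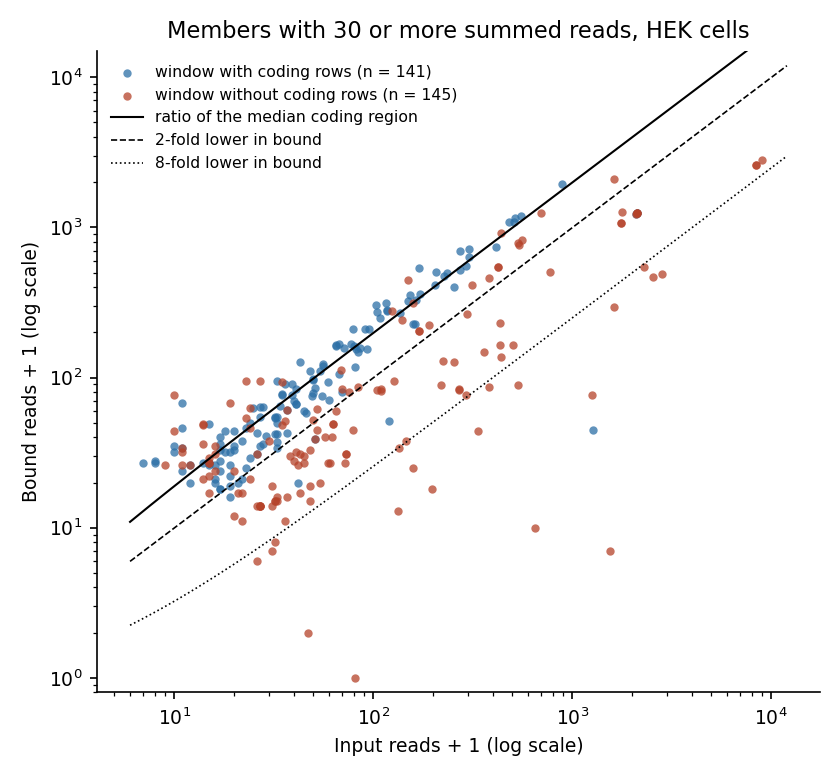
Bound reads + 1 (y) against input reads + 1 (x), both on log scales, for the 286 members with 30 or more summed reads. Red points are the 145 members in windows without coding rows and blue points the 141 in windows with them; lines mark the median coding region, 2-fold lower and 8-fold lower. Of the blue points 95 lie within 0.5 of the solid line on the log2 scale and 10 lie 2-fold or more below it, and the 3 most abundant members, at the right, lie between the dashed and dotted lines.

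Of the 34 members with 1000 or more reads, 21 (61.8%) were lower by 2-fold or more. Among all features with as many reads 103 of 7702 (1.34%) were. None of the 34 was higher by 2-fold or more, and none of the 7702 was. The 3 most abundant members all came from block C and had 9008, 8379 and 8372 input reads against 2797, 2613 and 2600 bound reads. Their ratios were 6.40-fold, 6.38-fold and 6.40-fold lower, so they differ by less than their counting intervals, which run from 6.10 to 6.69 in all. A shared source of reads was not tested. The next in order, from block A, had 1624 input and 2105 bound reads and was 1.53-fold lower (interval 1.44 to 1.64). Then came rows of block B with 2117 input and 1242 bound reads, or 2098 and 1228, both sets 3.39-fold to 3.40-fold lower. Further members had 2817 and 486 reads (11.5-fold lower, interval 10.5 to 12.7) and 2550 and 464 reads (10.9-fold lower, interval 9.89 to 12.1). They belong to block A.

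Abundant members without a lower ratio were present too. A member of block E with 887 input and 1958 bound reads was 1.11-fold higher (interval 1.03 to 1.20). A member of block C with 693 and 1255 reads was 1.10-fold lower, with an interval from 0.999 to 1.21. The first lies in a window with coding rows, the second in one without. In block A a member with 437 and 916 reads was 1.05-fold higher (interval 0.940 to 1.18). The log2 ratios of members in windows without coding rows ran from -8.77 to 2.03.

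Several members repeat each other's counts. Among the 286, 41 rows share both counts with another member, and the 286 form 262 different pairs of counts. Repeated pairs were not particular to the members. The 39534 other rows without a coding region form 16809 different pairs, and all 79018 features form 28114. Larger sets of rows have more room for equal counts, so these numbers are not directly comparable. The largest such set had 5 rows of block B, each with 2117 input and 1242 bound reads, and 2 of the 5 lay in windows with coding rows. The same block held 2 rows with 2098 and 1228 reads. A pair of rows with 1758 and 1068 reads had 1 row in block B and 1 in block D, so equal counts crossed blocks. Rows with equal counts cannot be taken as independent values, although small counts can also be equal without shared reads. Pairs of counts also recurred outside the blocks or in transcripts with a coding region. Of 151 members with 100 or more reads, 47 had the pair of another row without a coding region. The whole-transcript pair of a row with a coding region was matched by 36. Of the 85 members with 300 or more reads these were 5 and 6. Whether such rows share reads was not tested. With each pair of counts taken once, 87 members (33.2%) were lower by 2-fold or more, in place of 35.0%. The 5 rows with 2117 and 1242 reads also repeat the counts of rows left out as U1, so the list of rows left out was incomplete by counts.

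The members' share of reads was smaller after capture. Of the reads of all rows without a coding region they held 1.17% before capture (90266 reads, exact binomial 95% interval from 1.16 to 1.17). After capture they held 0.561% (63888 reads, interval from 0.557 to 0.565), a share 2.08-fold smaller. In windows without coding rows the shares were 0.912% and 0.311%, which is 2.93-fold smaller. In windows with coding rows they were 0.255% and 0.249%. The reads of all rows without a coding region were themselves lower after capture at the scale used, so a share falls less than the reads do. Summed over detected rows, that whole class was 1.35-fold lower and the members 2.84-fold lower. Few rows carried much of the class value. The 39443 other rows in windows with coding rows were 1.09-fold lower in sum. The 49 other rows in windows without them were 8.68-fold lower, and the 14 detected left-out rows 14.2-fold lower. Detected members in windows without coding rows were 4.0-fold lower in sum, and those in windows with coding rows 1.38-fold lower. That last sum leans on few rows, since the median log2 ratio of these 141 members was -0.036. By block, their sums were 3.34-fold lower in B (4 members), 1.40-fold in C (41) and 1.19-fold in D (8). The sum in C includes the member with 1268 and 44 reads. The 88 in block E were not lower in sum, with 8062 input and 16809 bound reads. Without the 10 members with the most reads the shares of all members were 0.649% and 0.407%. Repeated counts may count 1 read more than once, so these sums are not numbers of separate reads and the intervals are too narrow.

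The rows left out lay lower than the members. Of the 21, 14 had 30 or more reads and all 14 were lower by 2-fold or more, with log2 ratios from -5.69 to -1.76 and a median of -3.31. With them kept in, members held 3.12% of the reads of the class before capture and 0.747% after it.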

How the data were processed

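Footprint reads were counted by the authors and deposited as raw counts, with a separate table for the input and the bound library. Per the file headers, a row gives counts over a transcript, its coding region, its leader and its trailer. The submitters' processing notes list the builds hg19 and mm10 and the tools TopHat2 2.0.7, Bowtie2 2.0.6 and CASAVA 1.8, and say nothing of what each was used for. Not given in the sources used here are how reads were assigned to transcripts and what was done with reads that match several places. Multi-copy families can therefore share or lose reads, and their ratios are uncertain. The mouse libraries were not used.

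Members had a missing coding region in either file and identifier numbers 362080 to 365999 (block A), 383830 to 386300 (B), 408000 to 411400 (C), 458700 to 459600 (D) or 515800 to 517600 (E). The members, lists and windows were chosen with earlier results of these data known. Whole-transcript counts were used for rows without a coding region and coding-region counts for the rest. The scale, 1.99 bound reads per input read, was set on coding regions with 100 or more summed reads. A prior of 0.5 input-scale reads was added for log2 ratios. Counts of rows beyond a fold threshold and the fold levels of medians were taken from these ratios. Fold values of single members, of sums and of shares carry no prior. Rows needed 30 summed reads. The identifiers given are the 2 lowest and 2 highest log2 ratios among members with 100 or more reads; the planned naming by gene and the gene lists could not be done. Intervals are exact (Clopper-Pearson, 95%). Scripts were tested on simulated data. Alternatives included TMM scaling with edgeR 4.0.16. Python 3.11.15, pandas 2.3.3 and scipy 1.17.1 were used.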

Additional observations from a re-analysis of the deposited data

How the results depend on the processing

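No paired analysis was possible because input and bound are 1 library each. The 2 window sizes, the values by window and leaving out rows that repeat a left-out row's counts were chosen after seeing the data; the rest were planned. The median of all members and that of members in windows without coding rows stayed below 0 in every alternative run, at -0.80 to -0.26 and -1.76 to -1.27. For all members the count lower by 2-fold or more was 54 with a minimum of 100 reads, 29 with 500 reads, 51 at 4-fold and 64 without block A. The members' count higher was 13 scaled to total counts, 17 with a minimum of 10 reads, 1 with 100 reads and 0 with 500. It was 2 with a prior of 5, 22 at 1.5-fold and 1 at 4-fold. Beside this, 12 of the 39534 other rows without a coding region were higher by 4-fold or more. The background share of higher rows is not given for 10 reads, a prior of 5 or 1.5-fold. The members' percent lower was 49.2 with 500 reads, 46.9 at 1.5-fold, 17.8 at 4-fold, 28.3 without block A and 48.1 without block E. Their median was -0.73 with 500 reads, -0.26 without block A and -0.80 without block E. For the other rows without a coding region the percent lower was 3.53 scaled to total counts, 4.36 with TMM, 9.18, 2.30 and 1.41 with minimums of 10, 100 and 500 reads, 3.10 with a prior of 5, 14.1 at 1.5-fold, 0.875 at 4-fold and 5.95 with equal pairs once. Their median was 0.15, 0.036, -0.083, 0.0065, 0.074 and -0.042 in the first 6 of these settings and 0.0085 with equal pairs once. In windows without coding rows the percent lower was 73.8 at 1.5-fold and 33.1 at 4-fold, and the median was -1.30 scaled to total counts, -1.27 with 10 reads and -1.31 with a prior of 5. In windows with coding rows the percent lower was 17.4 with 500 reads, 19.1 at 1.5-fold and 2.13 at 4-fold, and the median was 0.16 scaled to total counts, 0.066 with 100 reads and 0.082 with 500. Members' shares of the class were 0.649% before and 0.407% after capture without the 10 with most reads, and 3.12% and 0.747% with left-out rows kept in. The cause of these changes was not tested beyond what each setting itself alters. At 30 summed reads a 2-fold difference is close to counting error.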
